A study of Mus musculus with 8 samples.

Results

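Accessibility at 39 interferon-stimulated genes was compared between LSK+ and LSK- bone marrow cells of wild-type and Xist-deficient female mice. The 39 genes were taken from a fixed list of receptors, signalling factors, nucleic acid sensors and antiviral effectors of the type I interferon response. The rule that lists them uses no measured value, although the list was drawn up with earlier results of these data known. They are 39 of 53843 genes annotated on chromosomes 1 to 19 and X in GENCODE M21 (mm10), of which 27184 had a peak at a promoter in at least 1 library. Among peak lists cut to equal length, Ifit1, Oas3, Rsad2, Mx2 and Irf1 ranked higher in LSK+ than in LSK- in every same-number pair of libraries and in both genotypes, and Ifitm3 ranked higher in LSK-. The strongest peak within 3 kb of a gene start, which gave the rank, lay in an intron of Oas3 and beyond the 3′ end of Ifitm3. Within 500 bp of the start, Oas3 overlapped between cell types, and Ifitm3 had a peak in 2 LSK+ and 0 LSK- libraries. None of the 22 genes with a strong promoter peak in every library, Oas3, Rsad2 and Irf1 among them, passed the test across all genes.

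Type I interferons bind the IFNAR1/IFNAR2 receptor, whose kinases activate the transcription factor complex ISGF3, with STAT2 and IRF9 among its subunits. ISGF3 binds the interferon-stimulated response element (ISRE) at the promoters of the induced genes, IRF1 binds ISRE-like elements, and the gamma-activated site (GAS) is a further element of genes induced by interferon. Hematopoietic stem cells are known to respond to interferon by leaving quiescence, and stem cells in general are known to keep some of these antiviral genes switched on without infection.

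ATAC-seq marks open chromatin by the insertion of sequencing adapters by the Tn5 transposase. LSK+ (Lin- Sca-1+ c-Kit+) cells, which hold the hematopoietic stem and multipotent progenitor cells, and LSK- (Lin- Sca-1- c-Kit+) myeloid progenitors were sorted from the bone marrow of 4.5-month-old female mice of the strain 129Sv4/Jae x B6, with about 10000 cells per reaction. The 4 groups were LSK+ WT, LSK+ XistΔ/Δ, LSK- WT and LSK- XistΔ/Δ, with 2 libraries in each and 8 in all. The study describes the 2 libraries of a group as biological replicates, while the labels name no animals, so a p-value below measures only the spread between these libraries. In XistΔ/Δ mice the floxed Xist alleles (Xist 2lox) were deleted by Vav-iCre, a Vav1-cre transgene at Commd10 that is active throughout blood cells, so the deletion covers both sorted populations. Whether the WT animals carried the transgene was not given in the sources used here.

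The lists held between 29829 peaks (LSK+ WT replicate 2) and 91590 peaks (LSK- XistΔ/Δ replicate 1), and the genome-wide background pileup, which rises with depth, lay between 0.482 and 3.87 fragments. This background was higher in LSK- than in LSK+ in 4 of 4 pairs of libraries with the same genotype and number, so cell type and depth cannot be told apart in any value below. An LSK- list was longer than the LSK+ list of the same genotype and number in 3 of the 4 pairs. A peak at the Xist promoter was listed in 4 of 4 WT libraries, and in the XistΔ/Δ libraries only in LSK- XistΔ/Δ replicate 2, at the 26.9 percentile, against its label. Among the markers, all 9 LSK- genes had a promoter peak in each LSK- library and 4 to 7 of them in LSK+ libraries. Of the 8 LSK+ genes, 6 to 8 had one in LSK+ and 5 to 8 in LSK-. Ly6a, which encodes the sorted Sca-1, was listed only in LSK+ WT replicate 1 and LSK- XistΔ/Δ replicate 1. T lymphocyte markers had 0 of 4 promoter peaks in any library, B lymphocyte markers 0 to 3 of 4, macrophage markers 0 to 3 of 4 and plasmacytoid dendritic cell markers, which include Bst2, 2 to 4 of 4. The ranges of these lymphocyte, macrophage and dendritic cell counts overlapped between LSK+ and LSK- libraries, and their part in the results was not tested.

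The value given for a gene is the rank of its strongest promoter peak, a peak with its summit within 3 kb of a transcription start site (TSS) of the gene. Peaks of a library were ordered by -log10 p and the rank was written as a percentile, 100 being the top of that list. A gene with no such peak is called absent, which says only that no peak passed the authors' threshold. The weakest listed summits had 5 to 13 fragments, depending on the library. Percentiles within the whole list are printed for each library. Because a longer list raises every percentile, tests and counts of non-overlapping genes used equal-length percentiles, the rank among the strongest 29829 peaks of each library, where absent also covers a peak below these. All differences are LSK- minus LSK+, in percentile points. For some genes the fragment pileup at the summit is also given as a multiple of the library's background pileup. Since that divisor was higher in LSK- in each pair, the direction of the undivided pileup is given beside it. Statements that libraries or groups overlapped refer to the whole-list percentiles unless equal length is named.

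Promoter peaks were widespread. Of the 39 genes, 39 and 32 had one in LSK+ WT, with 39 and 39 for LSK+ XistΔ/Δ, 36 and 28 for LSK- WT, and 39 and 37 for LSK- XistΔ/Δ. A promoter peak was present in all 8 libraries for 26 genes, and in 20 genes a peak within 500 bp of the TSS was. Among the strongest 29829 peaks, promoter peaks of 31 to 34 of the 39 genes were found in the LSK+ libraries and of 26 to 30 in the LSK- libraries, so the cell types did not overlap. Over all genes the range was 15546 to 17874 for LSK+ against 15406 to 16912 for LSK-, which overlap. The plot of promoter percentiles by library shows the values of each gene.

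**Figure D1:**
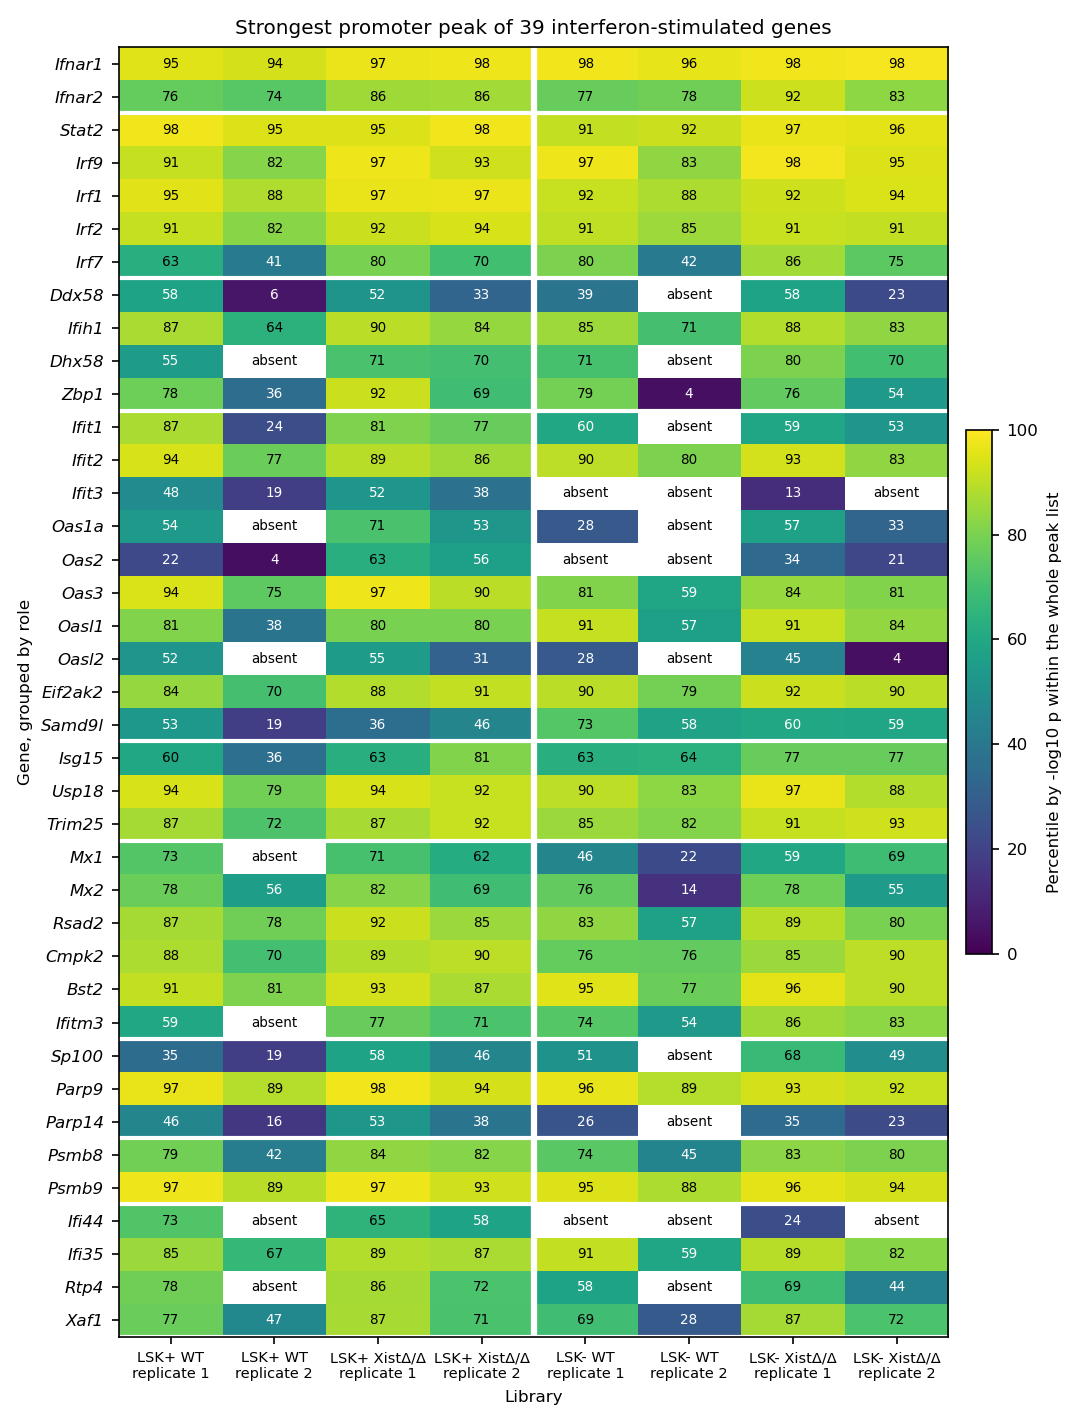
Heat map of the percentile, by -log10 p within the whole list, of the strongest promoter peak of each of the 39 genes (rows, grouped by role, white lines between groups) in the 8 libraries (columns, LSK+ left and LSK- right of the thick white line). White cells marked absent have no peak within 3 kb of a TSS. Ifnar1 stands between 93.5 and 98.5 in all 8 libraries, and Ifit3 and Oas2 are absent from both LSK- WT libraries.

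The ISRE was searched as its core, GAAA, any 2 bases, GAAA, on either strand, and GAS as TTCNNNGAA, which reads the same on both strands. Within 150 bases on each side of the strongest promoter summit of a gene, 14 of 39 genes (35.9%) held an ISRE core, compared with 992 of all 27184 genes with a promoter peak (3.65%). GAS was found at 10 of 39 (25.6%), compared with 7.19% of all genes. Among 65 other interferon pathway genes, 36.9% had the ISRE core and 13.8% had GAS. Since genes enter such lists for their response to interferon, these shares describe the list. In the RefSeq promoter table (GRCm38), 30 of the 39 genes were matched, and 13 of these (43.3%) held an ISRE core in the window from 250 bases before to 50 bases after the start, against 4.02% of all 26794 promoters.

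The following starts are shown as examples that hold a motif, from genes that ranked lower in LSK- (Ifit1, Rsad2, Rtp4, Zbp1, Oas3 and Irf1) and from Isg15, a well-known target. Many starts of genes that also differed between cell types in mean rank held 0 ISRE cores in the 150 bases before the TSS and are not shown. Among them were those of Mx2, Cmpk2, Irf2, Psmb8, Mx1, Ifi44, Xaf1, Ifitm3, Samd9l and Oasl1. The examples were picked for their motifs and give no share of genes with a motif. Each sequence shown is the stretch of 150 bases before the TSS in mm10, read 5′ to 3′ on the strand of the gene. Capitals mark every ISRE core or GAS, overlapping matches running together. The Ifit1 window is chr19:34640721-34640870 (+), that of Rsad2 is chr12:26456453-26456602 (-), that of Rtp4 is chr16:23609769-23609918 (+), that of Zbp1 is chr2:173218924-173219073 (-), that of Isg15 is chr4:156200819-156200968 (-) and that of Irf1 is chr11:53769864-53770013 (+). The Oas3 window, chr5:120777662-120777811 (-), also overlaps an exon of Gm43069.
Ifit1: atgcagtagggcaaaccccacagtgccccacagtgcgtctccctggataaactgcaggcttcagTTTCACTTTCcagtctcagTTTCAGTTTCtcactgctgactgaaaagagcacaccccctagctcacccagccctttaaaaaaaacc
Rsad2: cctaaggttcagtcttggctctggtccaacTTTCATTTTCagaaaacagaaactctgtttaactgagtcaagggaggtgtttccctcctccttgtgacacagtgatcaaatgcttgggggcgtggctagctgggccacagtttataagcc
Rtp4: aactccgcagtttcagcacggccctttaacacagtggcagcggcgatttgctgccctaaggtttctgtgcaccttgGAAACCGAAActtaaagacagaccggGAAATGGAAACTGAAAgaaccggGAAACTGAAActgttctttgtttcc
Zbp1: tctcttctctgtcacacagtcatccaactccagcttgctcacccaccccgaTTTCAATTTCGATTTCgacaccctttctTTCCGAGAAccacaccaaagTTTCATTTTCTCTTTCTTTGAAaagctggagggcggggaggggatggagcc
Isg15: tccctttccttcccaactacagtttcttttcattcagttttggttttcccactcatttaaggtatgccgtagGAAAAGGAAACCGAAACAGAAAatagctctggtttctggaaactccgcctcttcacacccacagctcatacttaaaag
Oas3: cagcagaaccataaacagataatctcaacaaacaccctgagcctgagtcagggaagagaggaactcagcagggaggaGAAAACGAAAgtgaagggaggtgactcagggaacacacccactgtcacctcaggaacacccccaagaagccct
Irf1: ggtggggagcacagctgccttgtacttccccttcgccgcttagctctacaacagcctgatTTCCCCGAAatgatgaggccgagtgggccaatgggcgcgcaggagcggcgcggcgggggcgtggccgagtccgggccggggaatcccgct
Ifit1 held 2 ISRE cores here, starting 86 and 67 bases before the TSS. Zbp1 and Rtp4 held 4 each and Isg15 held 3, several of them overlapping. Rsad2 and Oas3 each held 1. Irf1 held GAS and no ISRE core.

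At Oas3, Mx2 and Ifitm3 the strongest peak was over 500 bp from a basic-set TSS. Its summit lay 1848 to 2081 bp inside the first part of Oas3, in an intron, in each of the 8 libraries, at -974 to -884 bp from the start of Mx2 (negative values lie before the start), and 1547 to 1614 bp after the start of Ifitm3, outside any transcript. The 151 bases around the strongest of these summits are shown for Oas3 (chr5:120775665-120775815, -), Mx2 (chr16:97535116-97535266, +) and Ifitm3 (chr7:141009123-141009273, -), and Mx2 alone of the 3 holds an ISRE core in the printed window. Offsets are counted from the starts of the basic transcript set. The Mx2 gene entry, which covers further transcripts, begins at 97535308, close to the Mx2 summit at 97535191.
Oas3: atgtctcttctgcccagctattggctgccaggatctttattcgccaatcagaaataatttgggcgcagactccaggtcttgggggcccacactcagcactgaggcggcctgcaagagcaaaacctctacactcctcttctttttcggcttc
Mx2: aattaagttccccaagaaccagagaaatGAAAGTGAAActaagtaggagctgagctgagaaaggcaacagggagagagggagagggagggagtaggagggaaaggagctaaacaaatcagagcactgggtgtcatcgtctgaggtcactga
Ifitm3: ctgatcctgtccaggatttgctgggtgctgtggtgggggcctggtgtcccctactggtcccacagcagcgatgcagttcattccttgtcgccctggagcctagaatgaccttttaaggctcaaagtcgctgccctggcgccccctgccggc

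**Figure D2:**
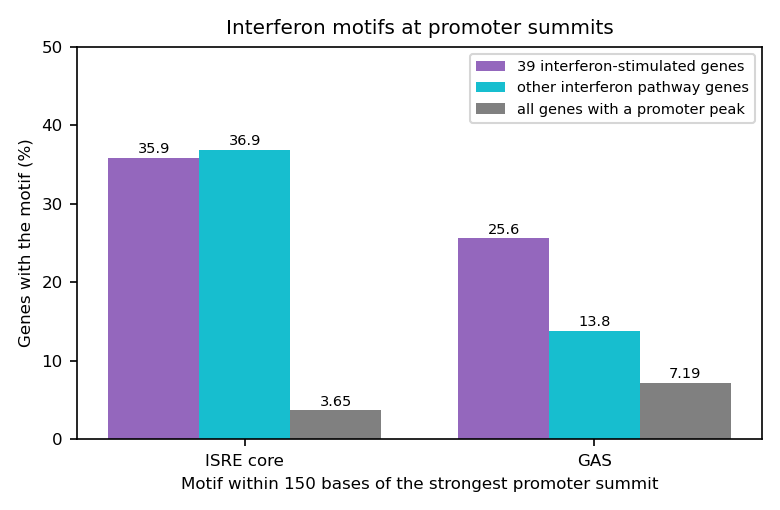
Bars, starting at 0, give the percentage of genes whose strongest promoter summit has an ISRE core (left) or GAS (right) within 150 bases, for the 39 genes, for 65 other interferon pathway genes and for all 27184 genes with a promoter peak. The ISRE core was present at 35.9%, 36.9% and 3.65% of them.

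Both receptor chains had strong promoters in every library. Ifnar1, the signalling chain that binds TYK2, stood at 95.0 and 93.5 in LSK+ WT, at 97.2 and 97.6 in LSK+ XistΔ/Δ, 97.7 and 96.3 in LSK- WT and at 97.7 and 98.5 in LSK- XistΔ/Δ. Within each genotype both LSK- libraries were above both LSK+ libraries, by 2.73 points in WT and 0.733 points in XistΔ/Δ. At equal length the XistΔ/Δ libraries overlapped, and the mean difference was 2.44 points (SE 1.67, adjusted p = 0.855, limma). Ifnar2, the chain with the higher affinity for interferon, stood at 76.2 and 74.0 in LSK+ WT, at 85.9 and 86.0 in LSK+ XistΔ/Δ, 76.9 and 78.3 in LSK- WT and at 92.2 and 82.8 in LSK- XistΔ/Δ. It was higher in both LSK- WT libraries than in LSK+ WT within the whole lists, and the XistΔ/Δ libraries of the cell types overlapped. At equal length the WT direction of Ifnar2 was the opposite, with pair differences of -4.52 and -1.38 points.

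The 5 genes of signalling and transcription factors all had promoter peaks in all 8 libraries. Stat2, a subunit of ISGF3, stood at 98.0 and 94.9 in LSK+ WT, at 94.7 and 98.0 in LSK+ XistΔ/Δ, 91.0 and 92.2 in LSK- WT and at 96.7 and 95.9 in LSK- XistΔ/Δ. It was lower in both LSK- WT libraries than in LSK+ WT, while in XistΔ/Δ the LSK- values lay between the LSK+ values. Irf7, which drives transcription of the interferon genes, had the lowest ranks of the group, at 63.0 and 40.7 in LSK+ WT, at 79.98 and 69.6 in LSK+ XistΔ/Δ, 80.4 and 41.7 in LSK- WT and at 86.0 and 74.8 in LSK- XistΔ/Δ. The replicates of Irf7 in WT differed by more than the cell types did.

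Irf1, an activator that binds ISRE-like elements, stood at 95.5 and 87.9 in LSK+ WT, at 96.5 and 97.1 in LSK+ XistΔ/Δ, 91.7 and 87.8 in LSK- WT and at 92.4 and 94.1 in LSK- XistΔ/Δ. At equal length these became 90.4, 87.9, 90.4 and 93.8 in LSK+, but 80.1, 84.6, 76.5 and 87.7 in LSK-, so every LSK+ library was above every LSK- library. The mean difference of Irf1 was -8.39 points (SE 3.63, adjusted p = 0.770, limma), and it turned to 2.38 points when peaks were ranked by fold enrichment. The summit pileup of Irf1 was 104, 143, 103 and 255 times background in LSK+ and 63.8, 92.7, 57.9 and 142 times in LSK-, lower in LSK- in each same-number pair and overlapping between cell types. The undivided Irf1 pileup was lower in LSK- in 2 pairs and higher in the other 2, so the direction rests on the division by background. Irf2, which competes with Irf1 for the same sites, was at equal length also lower in LSK- in all 4 pairs, with differences of -3.46, -0.726, -4.01 and -6.29 points and overlapping groups. Within the whole lists Irf2 was higher in LSK- in the second WT pair, at 85.2 against 82.1. Irf9, the DNA-binding subunit of ISGF3, ranged from 81.7 to 97.5 in LSK+ and from 83.4 to 98.2 in LSK-.

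Of the 4 sensors, Ifih1 (MDA5, which binds long double-stranded RNA) had the strongest promoter, at 87.4 and 64.2 in LSK+ WT, at 89.7 and 84.0 in LSK+ XistΔ/Δ, 85.3 and 70.5 in LSK- WT and at 88.3 and 83.4 in LSK- XistΔ/Δ. The cell types overlapped within the whole lists, and at equal length they overlapped in WT and not in XistΔ/Δ. The sign of the mean difference of Ifih1 depended on the list: -4.51 points (SE 6.235) at equal length and 0.547 points within the whole lists. Ddx58 (RIG-I, which binds 5′-triphosphate RNA) had the weakest, at 57.8 and 5.94 in LSK+ WT, at 51.6 and 32.6 in LSK+ XistΔ/Δ, 38.5 and absent in LSK- WT and at 57.8 and 22.6 in LSK- XistΔ/Δ. The Ddx58 summits lay 533 to 1038 bp after the TSS. Within 500 bp of it a peak was listed only in LSK+ XistΔ/Δ replicate 2, at 4.51. Zbp1, a sensor of Z-form nucleic acids, stood at 77.8 and 35.7 in LSK+ WT and at 91.9 and 69.5 in LSK+ XistΔ/Δ, compared with 79.1 and 4.07 in LSK- WT and at 75.9 and 53.9 in LSK- XistΔ/Δ. At equal length Zbp1 was lower in LSK- in all 4 pairs, with differences of -2.61, -35.7, -51.5 and -32.1 points, and the WT libraries overlapped. Dhx58 (LGP2, a regulator of the other RNA sensors) was absent from replicate 2 of both WT groups, the shortest list of each cell type, and stood at 54.9, 71.2 and 70.2 in the other LSK+ libraries and at 70.7, 80.1 and 69.8 in the other LSK- libraries. These Dhx58 values mix sites, an intronic peak in both LSK- XistΔ/Δ libraries and a peak at the TSS in the other libraries with a peak.

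Among the IFIT genes, whose products bind viral RNA, the cell types were separated at Ifit1 (at equal length) and Ifit3 (within the whole lists) and overlapped at Ifit2 within the whole lists. Ifit1, which recognises RNA caps that lack 2′-O-methylation, stood at 87.3 and 23.9 in LSK+ WT, at 80.6 and 76.9 in LSK+ XistΔ/Δ, 59.8 and absent in LSK- WT and at 58.9 and 52.6 in LSK- XistΔ/Δ. At equal length it was at 73.0, 23.9, 46.4 and 51.1 in LSK+, and in LSK- at 4.01, absent, absent and 0.712, so each LSK+ library was above each LSK- library. The summit pileup of Ifit1 was 52.8, 18.7, 38.5 and 55.1 times background in LSK+ and 19.7, absent, 14.2 and 20.3 times in LSK-. The undivided pileup was lower in LSK- in the 3 pairs in which both libraries had the peak. LSK+ WT replicate 2, the shortest list, was the low LSK+ library. The mean difference with absent promoters at 0 was -47.5 points.

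Ifit3, a partner that stabilises IFIT1, was at 48.1 and 18.5 in LSK+ WT and at 52.4 and 37.7 in LSK+ XistΔ/Δ, absent from both LSK- WT libraries, and at 13.1 and absent in LSK- XistΔ/Δ. Both LSK- WT lists were longer than the LSK+ WT list of the same number, in which Ifit3 was listed. Their weakest listed summits were also higher, 8 and 7 fragments against 7 and 5 in LSK+ WT. The Ifit3 summits had 20 and 8 fragments in LSK+ WT, and the part of detection in its absence from LSK- WT was not tested. The Ifit3 pileup was 15.9 to 18.7 times background in LSK+ and 5.43 times in the single LSK- library with a peak. Ifit2 stood at 93.9 and 77.4 in LSK+ WT, at 89.1 and 85.9 in LSK+ XistΔ/Δ, 90.1 and 80.3 in LSK- WT and at 93.1 and 83.3 in LSK- XistΔ/Δ. The Ifit2 groups overlapped in both genotypes within the whole lists, while at equal length both LSK+ WT libraries (87.1 and 77.4) were above both LSK- WT libraries (76.3 and 75.2). The 3 genes lie together on chromosome 19, and in no library did they share a promoter peak.

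Oas3, one of the synthetases whose 2′-5′ oligoadenylates activate RNase L, had the lowest p of the 22 genes tested. Its strongest promoter peak, the intronic site shown above, stood at 94.4 and 75.2 in LSK+ WT, at 97.3 and 89.7 in LSK+ XistΔ/Δ, 80.9 and 58.8 in LSK- WT and at 84.4 and 81.1 in LSK- XistΔ/Δ. At equal length the values became 88.1, 75.2, 92.6 and 78.2 in LSK+, but 54.5, 48.1, 52.2 and 60.4 in LSK-, and the lowest LSK+ library was above the highest LSK- library. The summit pileup was 80.9 to 141 times background in LSK+ and 31.2 to 61.6 times in LSK-, and undivided it was also lower in LSK- in 4 of 4 pairs. The mean difference of Oas3 was -29.7 points (limma, SE 6.98, adjusted p = 0.569), -30.4 in WT and -29.1 in XistΔ/Δ. It was lower in LSK- in 4 of 4 pairs, and with the replicate number as a block its adjusted p was 0.0535. Leaving out any 1 library gave differences from -33.4 to -26.1 points. At the Oas3 TSS itself, a weaker peak within 500 bp stood at 38.8, absent, 35.6 and 46.5 in LSK+ and at 28.9, absent, 39.1 and 39.3 in LSK-, and there the cell types overlapped.

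Oas2 stood at 22.0 and 3.81 in LSK+ WT and at 62.9 and 56.5 in LSK+ XistΔ/Δ, was absent from both LSK- WT libraries, and stood at 34.3 and 21.1 in LSK- XistΔ/Δ. Within each genotype both LSK+ libraries were above both LSK- libraries. The Oas2 peak of LSK+ WT replicate 2 had 6 fragments, near the weakest listed summit of that library, 5. Oas1a was listed in 3 LSK+ libraries, from 53.0 to 71.2, and in 3 LSK- libraries, from 28.1 to 57.1. Oasl1, which lacks synthetase activity and represses Irf7 translation, went the other way. It stood at 81.0 and 38.5 in LSK+ WT, at 79.9 and 79.9 in LSK+ XistΔ/Δ, 91.2 and 56.6 in LSK- WT and at 91.4 and 83.8 in LSK- XistΔ/Δ, and at equal length it was higher in LSK- in all 4 pairs, by 6.78 to 29.3 points (mean 16.0, SE 10.2, adjusted p = 0.841, limma). Its summit lay at -1189 to -1009 bp from the Oasl1 TSS, in the library with the strongest peak in an intron of Gm13822. Oasl2 was outside the strongest 29829 peaks in all 8 libraries.

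Samd9l, a restrictor of translation whose loss is linked to myeloid disease, stood at 53.3 and 18.5 in LSK+ WT, at 36.1 and 45.6 in LSK+ XistΔ/Δ, 73.5 and 57.6 in LSK- WT and at 59.9 and 59.2 in LSK- XistΔ/Δ. Within both genotypes both LSK- libraries were above both LSK+ libraries, by 29.6 points in WT and 18.7 points in XistΔ/Δ. At equal length this held in WT only, since the peak was outside the strongest 29829 in both LSK+ XistΔ/Δ libraries and in LSK- XistΔ/Δ replicate 1. Its summit pileup, 12.6 to 22.9 times background in LSK+ and 13.7 to 26.5 times in LSK-, overlapped, and undivided it was higher in LSK- in 4 of 4 pairs. Eif2ak2, the kinase PKR that blocks translation on double-stranded RNA, ranged from 70.4 to 90.8 in LSK+ and from 79.2 to 92.1 in LSK-.

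In the ISG15 system, Usp18, the protease that removes ISG15 and dampens IFNAR signalling, had the highest ranks, at 93.9 and 78.7 in LSK+ WT, at 93.8 and 91.5 in LSK+ XistΔ/Δ, 89.9 and 82.9 in LSK- WT and at 96.7 and 88.3 in LSK- XistΔ/Δ. The Usp18 groups overlapped within the whole lists, while at equal length both LSK+ WT libraries (87.1 and 78.7) were above both LSK- WT libraries (75.9 and 78.5). Isg15, the ubiquitin-like modifier, stood at 60.04 and 36.4 in LSK+ WT, at 63.0 and 80.9 in LSK+ XistΔ/Δ, 62.7 and 63.9 in LSK- WT and at 76.6 and 76.8 in LSK- XistΔ/Δ. Those peaks lay at -2792 to 2781 bp from the Isg15 TSS, and the strongest was at -157 bp from the TSS of AW011738. Within 500 bp of the Isg15 TSS, where the printed ISRE cores lie, a peak was listed only in LSK+ WT replicate 1 (28.1) and LSK+ XistΔ/Δ replicate 1 (59.6), and in 0 of 4 LSK- libraries. Trim25, an E3 ligase that activates RIG-I, ranged from 72.2 to 91.7 in LSK+ and from 81.5 to 92.6 in LSK-.

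Of the genes acting on virus entry, replication and release, Rsad2 and Mx2 ranked higher in LSK+. Rsad2 (viperin), which makes a chain-terminating nucleotide, stood at 86.6 and 78.3 in LSK+ WT, at 92.0 and 84.8 in LSK+ XistΔ/Δ, 83.3 and 57.3 in LSK- WT and at 89.3 and 79.8 in LSK- XistΔ/Δ. At equal length its 4 LSK+ values, 67.9 to 78.3, were above its 4 LSK- values, 46.2 to 67.2 (mean difference -16.1, SE 7.07, adjusted p = 0.773, limma). The Rsad2 pileup was 61.4 to 97.7 times background in LSK+ and 24.2 to 49.8 times in LSK-, with no overlap, and undivided it was lower in LSK- in 3 of 4 pairs. Cmpk2, the neighbouring kinase gene that supplies the nucleotide, was at equal length lower in LSK- in all 4 pairs, with differences of -29.8 and -0.290 points in WT and -15.3 and -0.245 points in XistΔ/Δ, both replicate 2 pairs being nearly level.

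Mx2, annotated in mm10 as a polymorphic pseudogene, stood at 77.7 and 55.7 in LSK+ WT, at 82.0 and 69.1 in LSK+ XistΔ/Δ, 76.0 and 14.4 in LSK- WT and at 78.0 and 55.3 in LSK- XistΔ/Δ. At equal length it was at 52.6, 55.7, 50.2 and 34.7 in LSK+, and in LSK- at 42.8, absent, 32.4 and 6.25, without overlap inside either genotype. Its pileup was 43.6 to 58.2 times background in LSK+, and each LSK- library was lower, down to 15.1 times, while undivided it was lower in LSK- in 3 of 4 pairs. Mx1, the paralogous GTPase, was at 73.4 and absent in LSK+ WT, at 70.7 and 62.0 in LSK+ XistΔ/Δ, 45.8 and 22.4 in LSK- WT and at 59.5 and 69.0 in LSK- XistΔ/Δ, and its groups overlapped. Reads with a mapping quality under 30 had been removed, so sites alike in both Mx genes, as in the IFIT and OAS families, could be under-represented.

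Ifitm3, a membrane protein that blocks fusion of enveloped viruses, stood at 59.5 and absent in LSK+ WT, at 76.7 and 71.5 in LSK+ XistΔ/Δ, 73.6 and 53.5 in LSK- WT and at 85.8 and 83.1 in LSK- XistΔ/Δ. At equal length it was at 13.9, absent, 35.5 and 39.6 in LSK+ and at 37.1, 41.5, 56.4 and 64.5 in LSK-, higher in both LSK- libraries of each genotype. Its pileup over background overlapped, 32.9 to 61.3 times in the 3 LSK+ libraries with a peak and 28.2 to 63.3 times in LSK-, and undivided it was higher in LSK- in the 3 pairs with both peaks. Within 500 bp of the Ifitm3 TSS a weak peak was listed in 2 LSK+ libraries and in 0 of 4 LSK- libraries. Bst2 (tetherin), which holds budding virions on the cell, had the highest mean percentile of the group, 88.8, at 90.8 and 80.5 in LSK+ WT, at 93.2 and 87.2 in LSK+ XistΔ/Δ, 95.2 and 77.3 in LSK- WT and at 95.9 and 90.2 in LSK- XistΔ/Δ. The Bst2 groups overlapped in both genotypes.

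**Figure D3:**
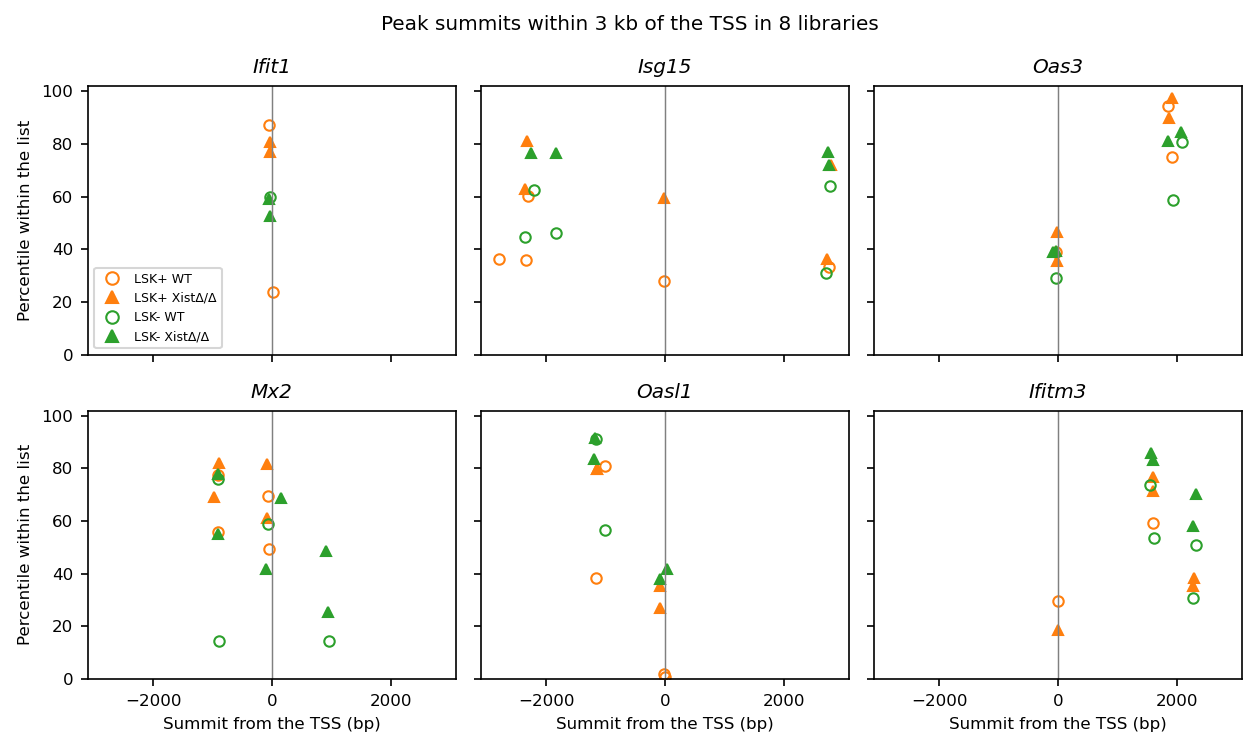
Position of every peak summit within 3 kb of the TSS (horizontal axis, bp along the gene, 0 at the TSS) against its percentile within the whole list (vertical axis) at 6 genes. Each symbol is a peak of 1 library, LSK+ in orange and LSK- in green, WT open circles and XistΔ/Δ filled triangles. The Ifit1 summits are at the TSS, the strong Oas3 summits 1848 to 2081 bp inside the gene, and the peaks at the Isg15 and Ifitm3 TSS are all LSK+.

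The nuclear and ADP-ribosylation factors spanned nearly the whole range. Parp9 stood at 96.8 and 88.7 in LSK+ WT, at 98.0 and 93.7 in LSK+ XistΔ/Δ, 96.3 and 88.9 in LSK- WT and at 93.5 and 91.6 in LSK- XistΔ/Δ. In XistΔ/Δ both LSK- libraries were below both LSK+ libraries, with a difference of -3.31 points, and in WT the difference was -0.104 points. Its summit was closer to the TSS of Dtx3l, its partner gene, than to that of Parp9. Parp14, a mono-ADP-ribosyltransferase, was at 45.6 and 16.3 in LSK+ WT, at 53.0 and 38.3 in LSK+ XistΔ/Δ, 25.8 and absent in LSK- WT and at 34.98 and 22.7 in LSK- XistΔ/Δ. Sp100, a component of PML nuclear bodies, ranged from 18.5 to 57.9 in LSK+ and from absent to 67.8 in LSK-. The strongest summits lay from -167 to 2249 bp from the Parp14 TSS and from -5 to 2046 bp from the Sp100 TSS. The values of both genes thus mix sites between libraries.

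Psmb9 and Psmb8 encode catalytic subunits of the immunoproteasome, which trims peptides for MHC class I. Psmb9, whose start faces that of the peptide transporter gene Tap1, stood at 97.3 and 89.1 in LSK+ WT, at 97.3 and 92.6 in LSK+ XistΔ/Δ, 94.7 and 87.9 in LSK- WT and at 96.0 and 93.6 in LSK- XistΔ/Δ. Psmb8 stood at 78.6 and 42.5 in LSK+ WT, at 83.6 and 81.7 in LSK+ XistΔ/Δ, 74.5 and 45.1 in LSK- WT and at 82.7 and 80.3 in LSK- XistΔ/Δ. The Psmb8 summits lay from -1131 to 518 bp from its TSS, so its values mix sites. Within 500 bp of the Psmb8 TSS, LSK+ WT replicate 2 had no peak and LSK- WT replicate 2 had one at 37.6. Both genes overlapped between cell types within the whole lists. At equal length both LSK+ WT libraries were above both LSK- WT libraries, at 94.3 and 89.1 against 87.4 and 84.7 for Psmb9 and at 54.6 and 42.5 against 39.1 and 30.8 for Psmb8, and Psmb8 was lower in LSK- in all 4 pairs, with differences of -15.5 to -2.41 points.

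Of the remaining 4 genes, Ifi35, a partner of NMI, had the highest mean percentile, 81.2, at 85.1 and 66.6 in LSK+ WT, at 88.5 and 87.5 in LSK+ XistΔ/Δ, 90.8 and 59.2 in LSK- WT and at 89.3 and 82.3 in LSK- XistΔ/Δ. Ifi44 had the lowest, at 72.9 and absent in LSK+ WT, at 65.2 and 57.9 in LSK+ XistΔ/Δ, absent from both LSK- WT libraries, and 24.2 and absent in LSK- XistΔ/Δ. Rtp4, a chaperone of G protein-coupled receptors that also restricts flaviviruses, was at 78.2 and absent in LSK+ WT, at 86.4 and 71.7 in LSK+ XistΔ/Δ, 58.2 and absent in LSK- WT and at 68.9 and 43.9 in LSK- XistΔ/Δ. In replicate 2 of WT both cell types lacked the Rtp4 peak, and in the other 3 pairs LSK- was lower at equal length, with -53.3 points in WT and -57.9 points in the first XistΔ/Δ pair. The Rtp4 pileup was 38.9 to 48.9 times background in 3 LSK+ libraries and 16.9 to 17.6 times in 3 LSK- libraries, and undivided it was lower in LSK- in the 3 pairs with both peaks. Xaf1, a pro-apoptotic factor, ranged from 46.8 to 86.9 in LSK+ and from 28.2 to 86.5 in LSK-.

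Across the list, more genes ranked higher in LSK+ than in LSK- at equal length. With absent promoters at 0, 36 of the 39 genes were in the table of 18936 genes with a promoter peak among the strongest 29829 in at least 2 libraries. In 5 of 36 (13.9%), Ifit1, Irf1, Mx2, Oas3 and Rsad2, both LSK+ libraries were above both LSK- libraries in WT and in XistΔ/Δ, compared with 5.4% of all genes. In 1 of 36 (2.78%), Ifitm3, the order was the opposite, compared with 7.08% of all genes. Within WT alone the LSK+ libraries were above the LSK- libraries at 13 of 36 genes (36.1%; 13.4% of all genes) and below them at 4 (11.1%; 14.2%). Within XistΔ/Δ alone they were above at 12 (33.3%; 11.2%) and below at 3 (8.33%; 16.7%). Ddx58, counted in the 13, and Ifi44 and Oas1a, counted in the 12, had a peak among the strongest 29829 in LSK+ libraries alone, so that the filter fixed their direction and these counts support nothing. Among the 12668 genes with such a peak in all 8 libraries, 22 of the list, LSK+ was above LSK- in both genotypes at 3 (13.6%; 3.82% of all genes), Irf1, Oas3 and Rsad2, and below at 0 (7.22% of all genes). Leaving out a library makes non-overlap easier for any gene, and no share over all genes was computed for the counts that follow. Without LSK+ WT replicate 2, the shortest list, 11 genes were above in both genotypes. Without LSK+ XistΔ/Δ replicate 1 the number was 8, without LSK- WT replicate 1 it was 9, and without LSK- XistΔ/Δ replicate 2, the library with a Xist peak, it was 7. Without that library Oas3 differed by -31.8 points (limma, SE 8.66, adjusted p = 0.904).

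LSK+ was higher than LSK- in all 4 same-number pairs at 11 of 36 genes (30.6%; 10.7% of all genes), namely Cmpk2, Ifih1, Ifit1, Irf1, Irf2, Mx2, Oas3, Parp9, Psmb8, Rsad2 and Zbp1. LSK- was higher in all 4 at 3 genes (8.33%; 17.3% of all genes), Ifitm3, Ifnar1 and Oasl1. Among the 22 genes present in all 8 lists these counts were 8 (36.4%; 9.93% of all genes) and 2 (9.09%; 20.6%). Of the 11 genes, 6 had an ISRE core and 4 had GAS within 150 bases of the strongest summit, compared with 14 and 10 of all 39. Of the 3 genes, 0 had an ISRE core there and 1 had GAS, but the summits of Ifitm3 and Oasl1 lay over 500 bp from the TSS. In the RefSeq promoter, Ifitm3 held 2 ISRE cores and 1 GAS, Ifnar1 held 0 and 1, and Oasl1 held 0 of either. Oas3, among the 11, held 0 ISRE cores at its summit and 1 in the RefSeq promoter. A link between motif and direction was not tested. Within the whole lists, which differ in length, the non-overlapping genes were others: Ifit3 and Oas2 in favour of LSK+ (2 of 39; 3.81% of all genes) and Ifnar1 and Samd9l in favour of LSK- (2 of 39; 8.73%). In LSK+ WT replicate 2 the Ifit3 and Oas2 peaks had 8 and 6 fragments, near the weakest listed summit, 5. When peaks were ranked by fold enrichment, Ifit1 and Oas3 remained non-overlapping with LSK+ above, and Ifitm3 did not remain. LSK+ was then higher in all 4 pairs at 4 of 36 genes (11.1%, against 7.51% of all genes) and LSK- at 3 (8.33%, against 12.3%). By mean whole-list percentile in WT, LSK+ was higher at 13 of 26 genes and LSK- at 13. In XistΔ/Δ these counts were 23 and 14 of 37.

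**Figure D4:**
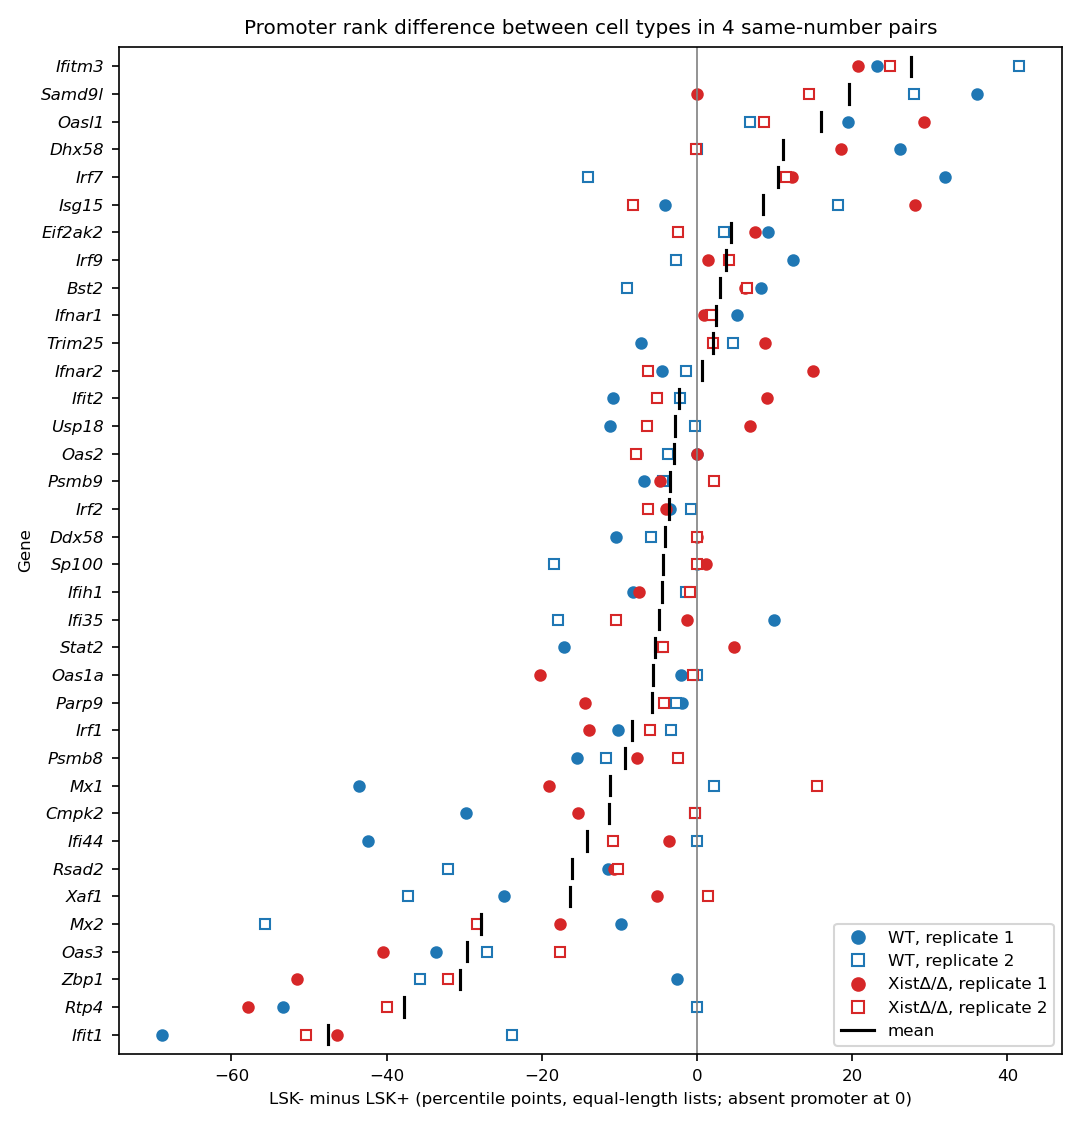
Difference in equal-length percentile of the promoter, LSK- minus LSK+ (percentile points, absent promoters at 0), for the 36 genes with a peak among the strongest 29829 in at least 2 libraries. Blue symbols are WT pairs and red symbols XistΔ/Δ pairs, circles replicate 1 and open squares replicate 2, and black bars are means. Ifit1 has the lowest mean, -47.5 points, and Ifitm3 the highest, 27.6 points.

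In the fit across the 12668 genes with a promoter peak among the strongest 29829 in all 8 libraries, 22 of the 39 genes could be tested. Being present everywhere, they leave out Ifit1, Rtp4, Mx2 and Ifitm3. limma called 0 of 22 genes between cell types at an adjusted p under 0.05, against 0.0% of all genes, with an unadjusted p under 0.05 at 1 of the 22 (Oas3) and at 831 of all genes. The median difference was -3.54 points over the 22 genes and 1.38 points over all genes, with 8 of 22 above 0. In WT the medians were -4.41 and 0.0587, and in XistΔ/Δ -0.583 and 2.69. With the replicate number as a block, 65 of 12668 genes (0.513%) and 0 of the 22 were called, and an unadjusted p under 0.05 was reached by 5 of the 22, Oas3, Irf1, Rsad2, Parp9 and Stat2, and by 2423 of all genes. With absent promoters at 0 and no block, 0 of 18936 genes were called by limma, with an unadjusted p under 0.05 at 2048 of them and at 6 of the 36. With both the block and absent promoters at 0, a combination chosen after the data were seen, 681 of 18936 genes were called, with 2 of 36 among them, both lower in LSK-: Oas3 (adjusted p = 0.0367) and Ifit1 (-47.5 points, SE 10.1, adjusted p = 0.0371). In that fit Rtp4 had a difference of -37.8 points (adjusted p = 0.0649), Zbp1 of -30.5 (adjusted p = 0.0999) and Ifitm3 of 27.6 (adjusted p = 0.106).

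Between genotypes, limma called 0 of the 22 genes, with 0 of 22 and 41 of 12668 genes at an unadjusted p under 0.05. Under the block it called 0 as well, with 1 of 22 and 451 of all genes at an unadjusted p under 0.05. The median difference, XistΔ/Δ minus WT, was 3.08 points over the 22 genes and 0.0113 points over all genes, with 17 of 22 above 0. At Dhx58 and Ifitm3 both XistΔ/Δ libraries were above both WT libraries in LSK+ and in LSK- (2 of 36, against 0.803% of all genes). At Samd9l both were below (1 of 36, against 1.15%). The LSK- order of Dhx58 compares an intronic peak of the XistΔ/Δ libraries with a WT peak at the TSS. Within 500 bp of the Dhx58 TSS the LSK- genotypes overlapped, with whole-list percentiles of 60.3 and 55.8 for XistΔ/Δ, and 70.7 and absent for WT. The ranked Ifitm3 peak lay beyond the 3′ end of the gene, and within 500 bp of its TSS no LSK- library had a peak. The XistΔ/Δ libraries had the higher background pileup in each same-number pair, so genotype and depth cannot be told apart here. The difference between cell types was also compared between genotypes, and limma called 0 of 22 genes, with 0 of 22 and 24 of all genes at an unadjusted p under 0.05.

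Peaks away from promoters were described by merging the strongest 29829 peaks of the libraries into regions. The bodies of the 39 genes with 10 kb on each side held 125 regions, 76 with a summit within 3 kb of a TSS and 49 distal. A region was specific to a cell type when both of its libraries and neither library of the other cell type held it. In both genotypes this was so for 2 of 49 distal regions in LSK+ (4.08%; 3.32% of all distal regions), for 2 of 49 in LSK- (4.08%; 4.02%), and for 0 of 76 (1.3% of all TSS-proximal regions) and 1 of 76 (1.32%; 1.48%) TSS-proximal regions. The shares at distal regions were near those of the genome. Without LSK+ WT replicate 2 there were 8 such regions in place of 5.

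Those specific to LSK+ lay in Sp100 and Ifit2. The region in an intron of Sp100, chr1:85687171-85687795, 37501 bp from the TSS, had a peak at 68.3 and 34.4 in LSK+ WT, at 75.3 and 65.6 in LSK+ XistΔ/Δ, 28.1 and absent in LSK- WT and at 15.3 and absent in LSK- XistΔ/Δ. The region in an untranslated exon of Ifit2, chr19:34570033-34570496, 19550 bp from the TSS, was at 81.3 and 11.4 in LSK+ WT and at 85.5 and 58.4 in LSK+ XistΔ/Δ and absent from the 4 LSK- libraries. This Ifit2 site was listed in LSK+ alone.

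Of the LSK- specific regions, that in an intron of Ifih1, chr2:62618719-62619387, 27099 bp from the TSS, was at 22.0 and absent in LSK+ WT, at 20.0 and 6.14 in LSK+ XistΔ/Δ, 91.3 and 65.4 in LSK- WT and at 92.4 and 68.8 in LSK- XistΔ/Δ. The region 10178 bp from the Irf9 TSS, chr14:55614532-55615060, lay outside any transcript and at -3280 bp from the start of Rec8. It was absent from the 4 LSK+ libraries and at 94.5 and 55.1 in LSK- WT and at 92.8 and 71.7 in LSK- XistΔ/Δ. The third, chr17:34205609-34206253, lay in an intron of Tap2 next to Psmb8. It was at 14.7 and absent in LSK+ WT, at 42.8 and 52.4 in LSK+ XistΔ/Δ, 74.0 and 51.4 in LSK- WT and at 81.4 and 72.0 in LSK- XistΔ/Δ. The 151 bases around the strongest Ifih1 summit (chr2:62618979-62619129, -), shown as the strongest LSK- specific site inside a listed gene, hold neither motif. Of the same windows at the other regions specific in both genotypes, that at Ifit2, not printed because it lies in an untranslated exon, held 1 ISRE core, and those at Sp100, Irf9 and Psmb8 held 0.
Ifih1: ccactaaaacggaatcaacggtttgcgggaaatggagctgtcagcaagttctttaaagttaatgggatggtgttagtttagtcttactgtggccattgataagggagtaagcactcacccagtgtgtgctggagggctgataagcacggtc

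Peaks at an intron of Cmpk2 and at a coding exon of Parp14 were also absent from the 4 LSK+ libraries. In LSK- they stood at 77.0, 52.1, 90.2 and 45.1 in Cmpk2 and at 71.3, 26.5, 87.6 and 28.6 in Parp14, where the weaker peaks of XistΔ/Δ replicate 2 were outside the strongest 29829.

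**Figure D5:**
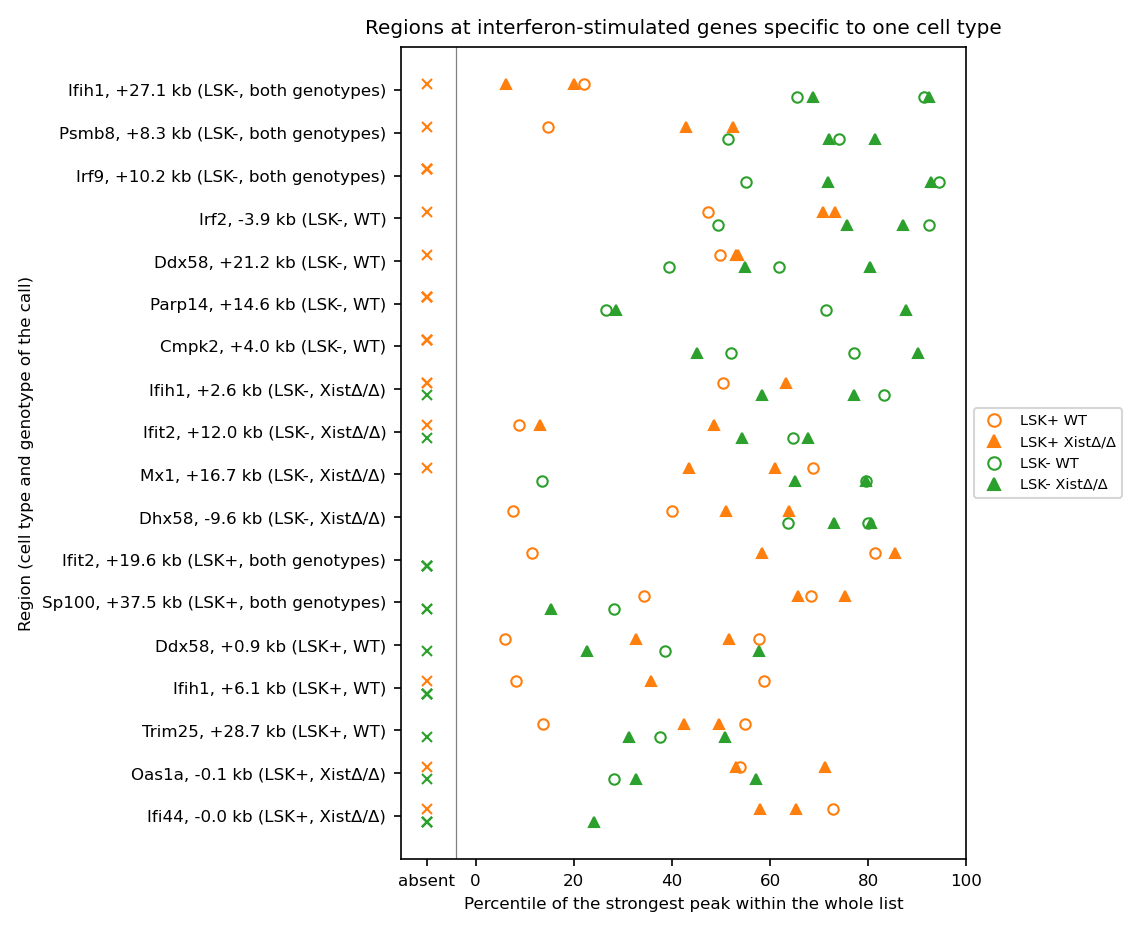
Percentile within the whole list (horizontal axis) of the strongest peak in the 18 regions at the 39 genes that were specific to a cell type in at least 1 genotype (vertical axis, gene, distance of the summit from its TSS and the call). LSK+ libraries are orange and LSK- libraries green, WT open circles and XistΔ/Δ filled triangles, with crosses for absent, some of which coincide. Regions at Irf9, Parp14 and Cmpk2 have no LSK+ peak, and the Ifit2 region at +19.6 kb has no LSK- peak.

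The other genes of the pathway were counted from a second list of 67 genes, of which 54 were in the table of 18936. LSK+ was above LSK- without overlap in both genotypes at 5 of 54 (9.26%; 5.4% of all genes) and below at 5 of 54 (9.26%; 7.08%). LSK+ was higher in all 4 pairs at 12 of 54 (22.2%; 10.7%) and LSK- at 8 of 54 (14.8%; 17.3%). The 2 lists are not separate. Dtx3l, one of the 12, had the same summit pileup as Parp9 in every library, and Tap1 the same as Psmb9, so a peak can count in both lists. In order of the size of the mean difference at equal length, Gbp6, a guanylate-binding protein, had 40.1 in LSK+ and was outside the strongest peaks in all 4 LSK- libraries, so that the filter fixed its direction, and Ddx60, a helicase, 58.5 and 18.8. Tapbp, which loads peptides on MHC class I, had 16.8 and 52.6. Tmem173 (STING), the adaptor of cytosolic DNA sensing, had 84.2 and 49.5, and Ifitm1, a neighbour of Ifitm3, 81.3 and 48.6. Ifitm1 ranked higher in LSK+ and Ifitm3 in LSK-. Ifi27 had 45.3 and 74.5, Ifngr2, a receptor chain for interferon gamma, 42.6 in LSK+ and 24.4 points more in LSK-, and Socs3, an inhibitor of cytokine signalling, 89.8 and 68.0.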

How the data were processed

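The members and lists were chosen with earlier results of these data known. The authors trimmed reads (Trim Galore), aligned them to mm10 with Bowtie2 (2.3.5.1), removed reads with a mapping quality under 30 or on mitochondrial DNA (SAMtools 1.10), and called peaks per library with MACS2 (2.2.7.1) on paired-end fragments with a q-value cutoff of 0.01. Removal of duplicates and a shift for Tn5 were not given for these libraries in the sources used here; duplicates would raise pileups, and an unshifted cut moves a summit by a few bases.

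The deposited peak lists, in the narrowPeak format without a header, give a fold enrichment ratio, the -log10 p-value, the -log10 q-value, a score made from the latter and the summit offset; these are the authors' values. Read counts per peak were not analysed here. Summit and background pileups were solved from fold and p (matched for 100% of peaks).

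Peaks on chromosomes 1 to 19 and X were joined to GENCODE M21 basic genes (GRCm38, the assembly of mm10). Equal-length percentiles by -log10 p were fitted with limma (3.58.1, R 4.3.3) over 4 group means, with Benjamini-Hochberg adjustment over all genes tested, two-sided. An exact permutation test of 1 value within genotype has 36 assignments and cannot go below p = 0.0556, so none was run. On simulated data for LSK- minus LSK+ (12668 genes, 200 shifted), 21% of shifts of 15 points, 51% of 30 and 73% of 45 were recovered. Unlike the data, the simulated libraries varied independently and their values were not capped at the top of the percentile scale. Number 1 and number 2 libraries come from different sequencing instruments according to the study; deviations of same-numbered libraries correlated at 0.393 to 0.684 in all 6 pairs of groups, so the number was taken as pairing and fitted as an alternative block. Values in every library were printed for genes whose cell types did not overlap in the same direction in both genotypes and for the genes with the largest and smallest mean percentile of each role group; Irf9, Irf2, Zbp1, Dhx58, Oas1a, Oasl1, Cmpk2, Rtp4 and the other genes given by ranges or pair differences were added after their values were seen. Motifs and sequences were read from the GRCm38 genome and the RefSeq promoter table with Python 3.11.15. Alternatives covered the ranking, threshold, TSS window, absent promoters, scale, block and each library left out. Of the second list, 1 symbol had no match in GENCODE M21.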

Additional observations from a re-analysis of the deposited data

How the results depend on the processing

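The number of listed genes called between cell types was 0 in every fit except that with both the replicate block and absent promoters at 0, which called 2 (681 over all genes) and gave Oas3 a difference of -29.7. With the replicate block alone, and in each fit that left out 1 library, the number called was 0, also within genotypes and between them. The pairing moved no other call. The 5 regions specific to a cell type in both genotypes became 3 when a peak had to cover 50% of a region, 14 with 50 kb on each side, 3 with the gene body alone, and 5 to 8 with a library left out (8 without LSK+ WT replicate 2). The 11 genes higher in LSK+ in all 4 pairs became 4 of 36 with ranking by fold enrichment (11.1%, against 7.51% of all genes). With a library left out, when fewer pairs remain, the number was 12 to 15. The 3 genes higher in LSK- became 6 within the whole lists, 1 with TSS windows of 1 kb or 500 bp, and 4 to 6 with a library left out (6 without LSK+ WT replicate 2 or LSK- WT replicate 2). The 5 genes with LSK+ above without overlap became 2 of 39 within the whole lists (5.13%, against 3.81% of all genes). By fold enrichment the number was 2 of 36 (5.56%, against 3.46% of all genes). It was 3 among genes present in all 8 equal-length lists (an alternative added after the data were seen) and 5 to 11 with a library left out. No share over all genes was computed for counts with a library left out. The 1 gene with LSK- above became 2 within the whole lists, 0 by fold enrichment, with windows of 1 kb or 500 bp and among genes present in all 8 lists, and 1 to 3 with a library left out (2 without either LSK+ WT library, 3 without LSK+ XistΔ/Δ replicate 2, LSK- WT replicate 2 or LSK- XistΔ/Δ replicate 1). The difference reversed for Ifih1 within the whole lists (0.547) and for Irf1 by fold enrichment (2.38). Of the settings tried for single genes, 151 kept direction and side of the threshold. None of these genes passed the threshold in the main fit, so keeping its side says only that they still did not pass. The settings share libraries and are not separate support. Apart from the number of libraries or genes a setting leaves, the cause was not tested. In the simulation, with 2 libraries per group, 21% of shifts of 15 points and 51% of 30 were recovered, and the reach in these data may differ.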

Other observations

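The interferon genes themselves were mostly without a promoter peak. Of Ifnb1, Ifna2, Ifna4, Ifng and Ifnl3, 0, 0, 4 and 1 had one in LSK+ WT replicates 1 and 2 and LSK+ XistΔ/Δ replicates 1 and 2, and 1, 0, 1 and 0 in the LSK- libraries in the same order. None of these 5 genes had a peak in all 8 libraries, and 1 had none in any.

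Distal peaks were found at 34 of the 39 genes in at least 1 library, and at 0 libraries for Irf7, Oas1a, Eif2ak2, Mx2 and Psmb9. Counted within 500 bp of the TSS, 11 of the 39 genes had a peak in more LSK+ than LSK- libraries, 4 in more LSK- libraries and 24 in as many, compared with 3330, 2586 and 13094 of 19010 genes.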
